A study of Mus musculus with 5 samples.

Results

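The interferon-response gene families were followed in the chromatin of naïve CD8+ T cells that had, or lacked, the transcription factors Tcf1 (encoded by *Tcf7*) and Lef1. Members were chosen by name: every protein-coding gene of the mm9 annotation whose symbol begins with Ifit, Ifi, Oas, Gbp, Mx or Isg followed directly by a digit, plus *Irf1*, *Irf2*, *Irf3*, *Irf5*, *Irf7*, *Irf8*, *Irf9*, *Stat2*, *Bst2* and *Rsad2*. The rule gave 50 of 22380 protein-coding genes, namely 11 Gbp, 11 Ifi, 10 Oas, 3 Ifit, 3 Isg and 2 Mx genes and the 10 single factors. A site belonged to a member where its summit lay in the gene body or within 10 kb of it.

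Chromatin accessibility (ChrAcc) was mapped by DNase-seq, which sequences the short fragments that DNase I frees from open chromatin. Both groups were spleen CD8+ T cells, sorted as GFP+ TCRβ+ cells of naïve phenotype, with low to medium CD44, from adult C57BL/6 mice of both sexes that carried hCD2-Cre, a transgene active mainly in mature T cells, and a Rosa26 GFP reporter of Cre activity. The WT mice were *Tcf7* +/+ *Lef1* +/+ (3 replicates) and the dKO mice *Tcf7* fl/fl *Lef1* fl/fl (2 replicates), and since hCD2-Cre does not recombine in every cell, GFP was used to select those in which it had acted. The labels name no interferon treatment or infection of these samples. The replicates of each genotype were pooled by the authors into 1 peak list, resting on 83923734 fragments for WT and 62242963 for dKO. These lists therefore gave no spread between replicates and no test between the genotypes, and each difference given here has no replicate check. The paper did test the genotypes, on reads counted in each replicate, but those calls were not used here.

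Interferons are secreted when a cell senses a virus, and they act through receptors that switch on STAT and IRF transcription factors. Type I interferon assembles a complex with Stat2 and Irf9 that binds the interferon-stimulated response element (ISRE), a pair of GAAA half-sites, while interferon γ acts mainly through the GAS element. The genes switched on in this way encode antiviral effectors, such as the Ifit, Oas, Mx, Gbp and Isg families. Naïve T cells rest at a low interferon tone, and the IRF factors serve both this pathway and lymphocyte differentiation.

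A ChrAcc site was a peak with a fold enrichment of at least 4 over the local background of its own pool, p under 1e-05 and q under 0.05. The WT list held 28472 such sites and the dKO list 24363, of which 61 and 63 belonged to the 50 genes. Because fold enrichment depends on depth, each site was described by its percentile of fold enrichment within its own list, which runs up to 100, and an absent site was given 0. Overlap by at least 1 bp made a site shared, and a promoter site had its summit within 1 kb of an annotated transcription start site (TSS). The cell type was checked at the promoters of marker genes. All 8 markers of naïve CD8+ T cells, among them *Cd8a*, *Cd8b1*, *Cd3e* and *Ccr7*, had a promoter site in WT, and 7 of them in dKO, where *Cd3d* had none. None of the markers of B cells, NK cells and plasmacytoid dendritic cells had one in either list, and among 4 myeloid markers only *Itgam* had one, in WT.

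The ISRE core was searched as GAAA, any 2 bases, GAAA, on both strands and within 100 bp of a summit. It lay at 15 of 61 member sites in WT (24.6%, 95% Wilson interval 15.5 to 36.7) and at 13 of 63 in dKO (20.6%, 12.48 to 32.2), beside 3.55% of all WT and 3.69% of all dKO sites. Such intervals cover counting error over sites only. At promoter sites the share was 28.6% of 42 in WT, against 2.39% of all 11170 WT promoter sites, and at distal sites it was 3 of 19 (15.8%), against 4.31% of all WT distal sites. Over promoter and distal sites together, the median GC content was 51.7% at the WT member sites and 53.2% at all WT sites. At promoter sites alone it was lower at the members, at 53.7% against 62.7% of all WT promoter sites. At distal sites it was 46.8% against 49.8%. The part of base composition in the ISRE share was not tested. The longer form, with CT after the second GAAA, was found at 7 WT member sites (11.5%, against 0.407% of all WT sites). These are the cores at the sites the results below turn on, read in mm9 so that the core runs 5′ to 3′, with the core and any core that overlaps it in capitals:
Rsad2 promoter (chr12:27141418-27141447, plus strand): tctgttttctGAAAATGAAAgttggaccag
Gbp7 promoter (chr3:142193237-142193266, minus strand): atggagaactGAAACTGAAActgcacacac
Gbp10 promoter (chr5:105668828-105668857, minus strand): gggttcaaagGAAAGAGAAAgtaaacactg
Mx2 promoter (chr16:97756741-97756770, plus strand): ccagagaaatGAAAGTGAAActaagtagga
Oas1b and Oas1c promoter (chr5:121262615-121262644, plus strand): ttcccggGAAATGGAAACTGAAAgtcccat
Irf2 promoter (chr8:47824848-47824877, plus strand): gtggggaagtGAAAATGAAAttgacttttc
Isg15 promoter (chr4:155574980-155575009, minus strand): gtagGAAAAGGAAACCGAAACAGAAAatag
Ifit1 promoter, core farther from the start (chr19:34715265-34715294, minus strand): actgagactgGAAAGTGAAActgaagcctg
Ifit1 promoter, core nearer the start (chr19:34715284-34715313, minus strand): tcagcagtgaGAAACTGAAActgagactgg
Ifi27l1 promoter (chr12:104672333-104672362, plus strand): gagagctgggGAAATAGAAAcctatcttat
Bst2 promoter (chr8:74061479-74061508, minus strand): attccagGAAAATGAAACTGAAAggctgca
Irf2 intron 8 (chr8:47930164-47930193, plus strand): tttctatacaGAAAGCGAAActaccgacag
Gbp8 upstream site (chr5:105491641-105491670, minus strand): gattctcatgGAAACTGAAAgcaactgagc
Gbp4 upstream site (chr5:105574911-105574940, minus strand): gattctcatgGAAACTGAAAgcaaccgagc

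The cores differed in distance from the gene starts. Their centres were 115 bp upstream of the *Rsad2* TSS, 51 bp upstream of *Gbp7*, 67 bp upstream of *Isg15*, 15 bp upstream of *Oas1b*, 82 and 63 bp upstream of *Ifit1*, and 157 bp upstream of *Bst2*. That of *Mx2* was 935 bp upstream, and those of the distal sites were 9075 bp upstream of *Gbp8*, 6320 bp upstream of *Gbp4* and 105079 bp downstream of the *Irf2* start. *Isg15*, *Oas1b* and *Bst2* carried runs of overlapping cores, and *Ifi27l1* carried 3 separate cores spaced exactly 87 bp apart, of which only the first, 74 bp upstream of the start, is printed. A match of these letters is a description and was not tested as a bound site.

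Of the 50 genes, 35 had a ChrAcc site in WT and 37 in dKO, beside 60.9% and 57.5% of all protein-coding genes. A promoter site was found at 29 genes in WT and 28 in dKO, beside 44.8% and 41.7% of all protein-coding genes, and 27 genes had one in both lists. Of the WT member sites, 68.9% were promoter sites, against 39.2% of all WT sites. Among WT sites within 10 kb of a protein-coding gene, as member sites are by rule, the share was 48.8%. The promoter could be that of any protein-coding gene, so promoters of neighbours such as *Rpl27* were counted. The median rank of the members' sites was percentile 59.6 (WT list) and 59.1 (dKO list), above the middle of the scale, where that of all sites lies by construction. At promoter sites alone the WT median was 56.5, below the 62.9 of all WT promoter sites, and the dKO median was 63.2, against 60.9. At distal sites the medians were 59.6 against 43.1 in WT and 54.1 against 43.5 in dKO. So in resting naïve CD8+ T cells 35 of these genes in WT, and 37 in dKO, had an open site.

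**Figure D1:**
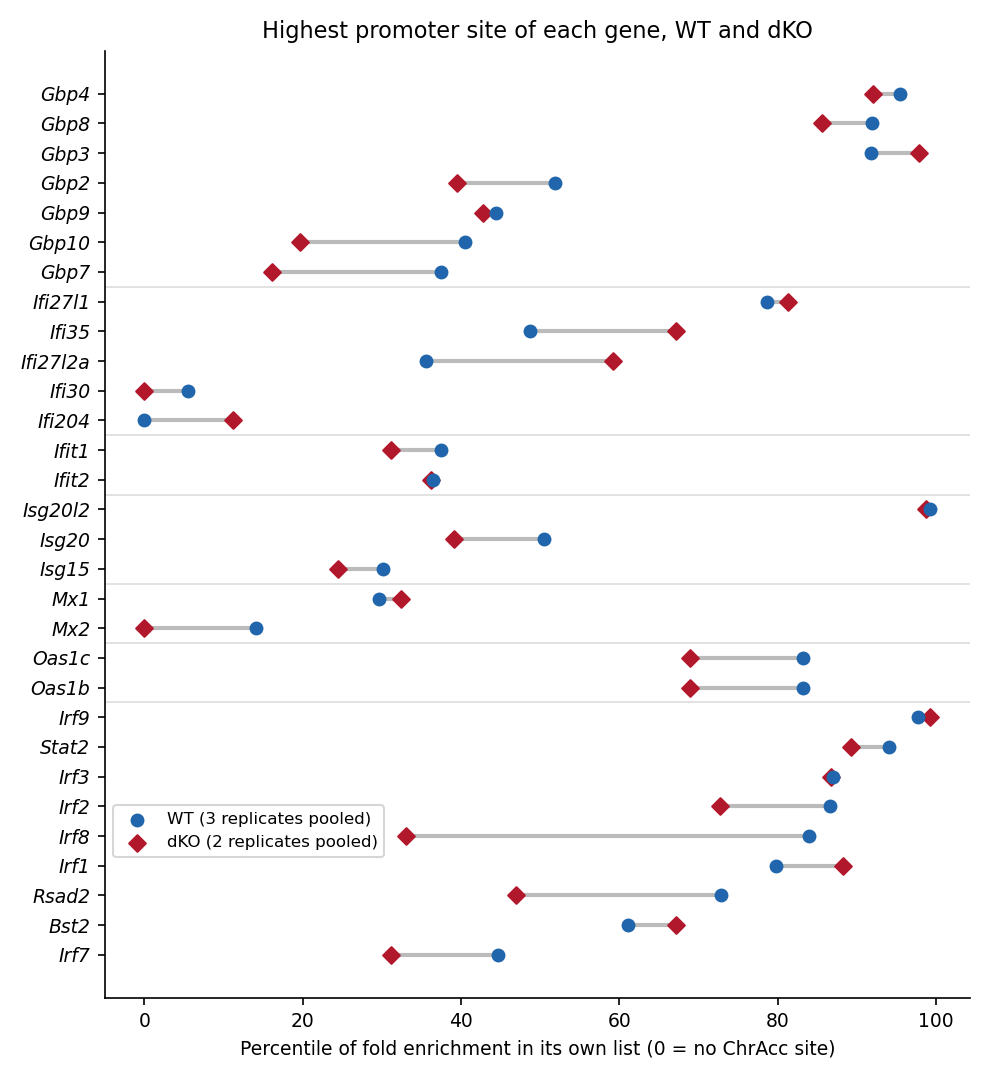
Percentile of fold enrichment (horizontal axis, 0 where a list has no site) of the highest promoter site of the 30 genes with a promoter site in either list, grouped by family, with WT as circles and dKO as diamonds. The *Irf8* pair is the widest apart, at 84.0 and 33.0, while *Irf9*, *Isg20l2*, *Irf3* and *Ifit2* nearly coincide.

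Most member sites were found in both lists. In WT, 7 of 61 sites (11.5%, 5.67 to 21.8) had no overlapping dKO site, beside 27.6% of all WT sites. In dKO, 8 of 63 (12.7%, 6.58 to 23.1) had no overlapping WT site, beside 14.4% of all dKO sites. Promoter and distal sites were also taken apart. Among promoter sites, 4 of 42 WT member sites (9.52%, 3.77 to 22.1) were absent from dKO against 15.9% of all WT promoter sites, and among distal sites 3 of 19 (15.8%, 5.52 to 37.6) against 35.1%. For dKO, 3 of 42 promoter sites (7.14%, 2.46 to 19.0) were absent from WT against 4.57%, and 5 of 21 distal sites (23.8%, 10.6 to 45.1) against 21.4%. With the exception of the 27.6%, each background share lay within the members' interval. A missing overlap is not a tested difference, and the paper's test on replicates called a far smaller share of sites.

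**Figure D2:**
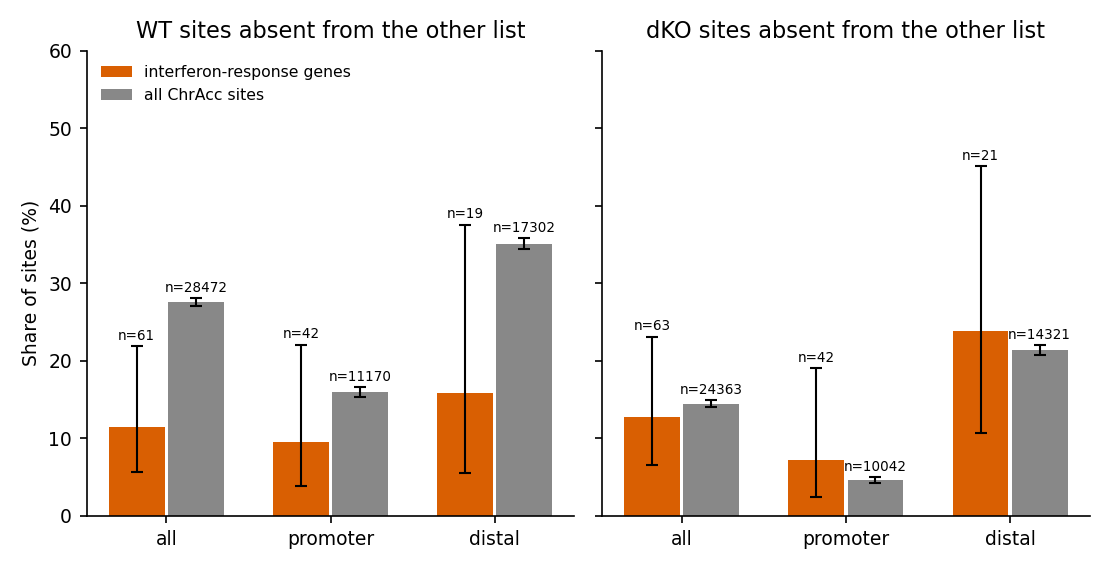
Share of ChrAcc sites with no overlapping site in the other list (vertical axis, percent), for the interferon-response genes and for all sites, in all, promoter and distal sites, with 95% Wilson intervals and the number of sites. The member intervals are wide, and only for all WT sites (11.5% against 27.6%) does the background lie above the interval.

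At the 54 shared member sites the ranks moved both ways. The median of dKO minus WT was −1.44 percentile points (quartiles −11.9 and 5.99), beside −2.48 points over all 20626 shared sites (−12.6 and 6.03). In 46 of the 54 the percentiles differed by less than 20 points. Such a shift was rarer near the top of the scale, where 22 member sites had a mean percentile above 75. In that band 3.33% of all shared sites were 20 points higher in WT, against 22.6% in the band from 25 to 50. Percentiles at least 20 points higher in WT were found at 6 sites, beside 13.6% of all shared sites, and at least 20 points higher in dKO at 2, beside 7.03%. With both lists limited to their 20000 peaks of lowest p, the balance turned: 2 sites were 20 points higher in WT and 5 in dKO, and the median difference was 2.40 points. In the full lists, the 6 were at *Irf8*, *Ifi205*, *Irf2*, *Rsad2*, *Gbp7* and *Gbp10*, and the 2 at *Irf3* and *Ifi27l2a*.

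**Figure D3:**
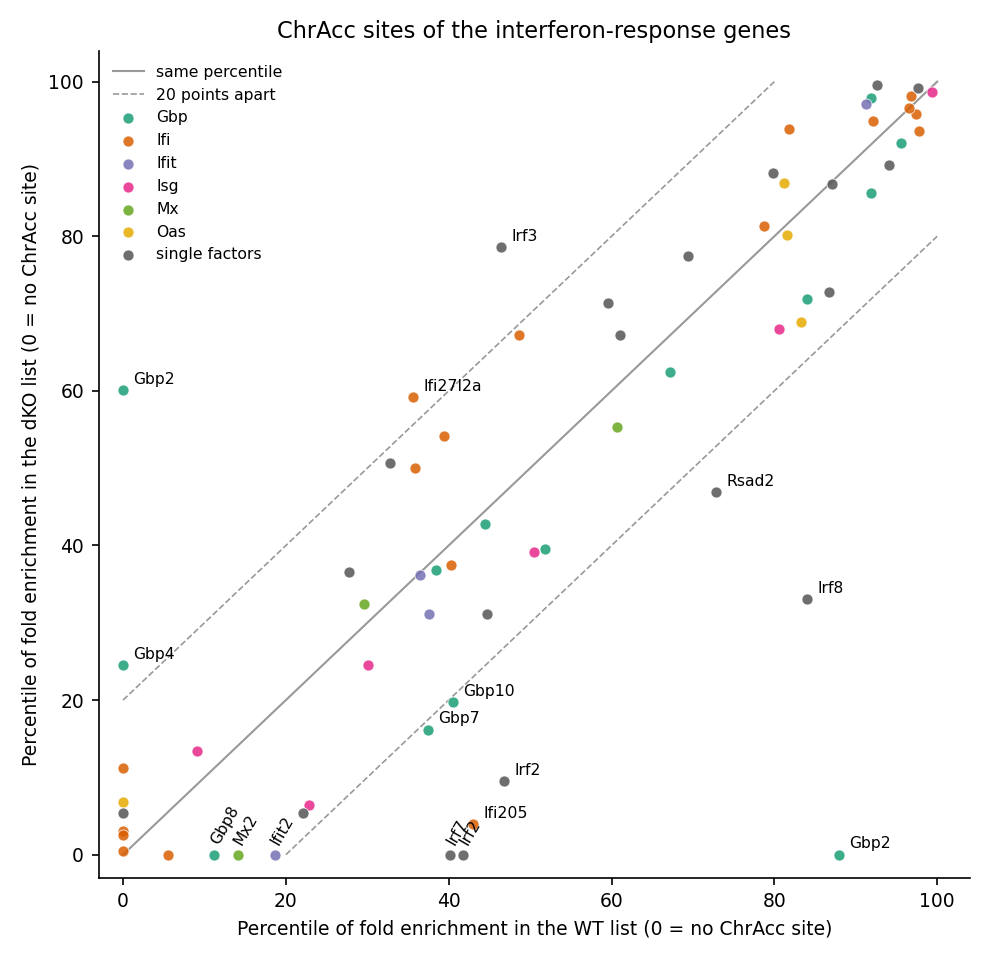
Percentile of fold enrichment of each member site in the WT list (horizontal axis) and in the dKO list (vertical axis), coloured by family. Points on an axis are absent from the other list, and the dashed lines mark a difference of 20 points. Most points lie between the dashed lines, and *Irf8*, *Rsad2* and the WT-only *Gbp2* site lie farthest below them among sites above percentile 70 in WT.

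The IRF factors, which read and carry the interferon signal, held the largest difference among the shared member sites. *Irf8*, a factor of myeloid and B cell development that is also used by activated CD8+ T cells, had a promoter site 103 bp upstream of its TSS that ranked at percentile 84.0 of the WT list and 33.0 of the dKO list. The pileup at its summit (how many fragments cover that base) was 84 in WT and 28 in dKO. With each pileup divided by the fragments of its pool, the dKO to WT ratio was 0.449 (95% conditional exact interval 0.282 to 0.697, counting error only), whereas the median ratio over all shared sites was 0.912. The site is GC-rich and held no ISRE core within 100 bp of the summit. A match to the GAS element (TTC, any 3 bases, GAA) lay at 7 of 61 WT member sites (11.5%), beside 5.83% of all WT sites. Of the 6 shared member sites with such a match, 3 were lower in dKO. The *Irf8* site is shown from its start to the base before the TSS, with its GAS match in capitals:
Irf8 promoter site (chr8:123260091-123260257, plus strand): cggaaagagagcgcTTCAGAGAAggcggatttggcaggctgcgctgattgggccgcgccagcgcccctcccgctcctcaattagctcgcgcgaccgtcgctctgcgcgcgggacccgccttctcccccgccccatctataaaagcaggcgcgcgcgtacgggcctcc

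The second *Irf8* site lay in intron 6, 103 bp downstream of the start of a shorter annotated transcript. It stood at percentile 22.1 in WT and 5.39 in dKO, with pileups of 30 and 18, and carried an ISRE core. Both *Irf8* sites were thus lower in dKO, the second by less than 20 points. The *Irf8* promoter difference was past 20 points under each of the 6 other site definitions and rankings tried on the percentiles, where dKO minus WT ran from −70.29 to −49.3.

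*Irf2*, a repressor and occasional activator at ISREs, had 4 WT sites and 3 dKO sites. Its promoter site, 159 bp upstream of the TSS and with an ISRE core, was at percentile 86.7 in WT and 72.8 in dKO (pileups of 144 and 78, ratio 0.730, 0.547 to 0.969). In intron 1, a site 16.3 kb downstream of the TSS stood at 46.8 in WT and 9.49 in dKO (pileups of 51 and 21, ratio 0.555, 0.317 to 0.940). Both ratio intervals lay below 1, but both held 0.912, the median ratio over all shared sites. A further intron 1 site, 23.1 kb downstream (chr8:47847977-47848299), was at percentile 41.8 in WT with a pileup of 45 and had no peak in the dKO list. The intron 8 site, 105145 bp downstream and with an ISRE core, went the other way, at 59.6 in WT and 71.4 in dKO. Lower dKO values were therefore limited to the promoter and the first intron among its 4 WT sites. With a minimum fold enrichment of 8, the difference at the 16.3 kb site shrank to −1.10 points, since the dKO site then dropped out and the WT site ranked near the bottom.

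The dKO summit of the 16.3 kb site lay beside the Tcf/Lef core ATCAAAG. That motif lay at 1 of 61 WT member sites (1.64%, 0.29 to 8.72), beside 3.81% of all WT sites. In dKO it lay at 2 of 63 (3.17%, 0.875 to 10.9), beside 2.42% of all dKO sites. Both background shares lay within the members' intervals. The WT summit of the same *Irf2* site lay farther from the motif, so it was not counted in WT. The extent of the dKO site is given with the core in capitals:
Irf2 intron 1 site (chr8:47841357-47841621, plus strand): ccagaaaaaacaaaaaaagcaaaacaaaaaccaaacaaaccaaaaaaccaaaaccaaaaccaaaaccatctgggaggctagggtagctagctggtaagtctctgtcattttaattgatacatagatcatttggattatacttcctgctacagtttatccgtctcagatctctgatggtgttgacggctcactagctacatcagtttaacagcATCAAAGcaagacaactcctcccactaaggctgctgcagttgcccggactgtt

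The other ATCAAAG core was at a site 13.4 kb downstream of the *Mx1* TSS, 115 bp wide, which was shared and similar in rank, at percentile 60.6 of the WT list and 55.3 of the dKO list. Its 201 bases around the WT summit are shown with the core in capitals:
Mx1 downstream site (chr16:97665569-97665769, plus strand): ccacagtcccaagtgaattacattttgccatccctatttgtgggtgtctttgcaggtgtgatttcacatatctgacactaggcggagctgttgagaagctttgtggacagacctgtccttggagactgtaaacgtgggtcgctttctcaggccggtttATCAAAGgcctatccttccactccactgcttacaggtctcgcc

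**Figure D4:**
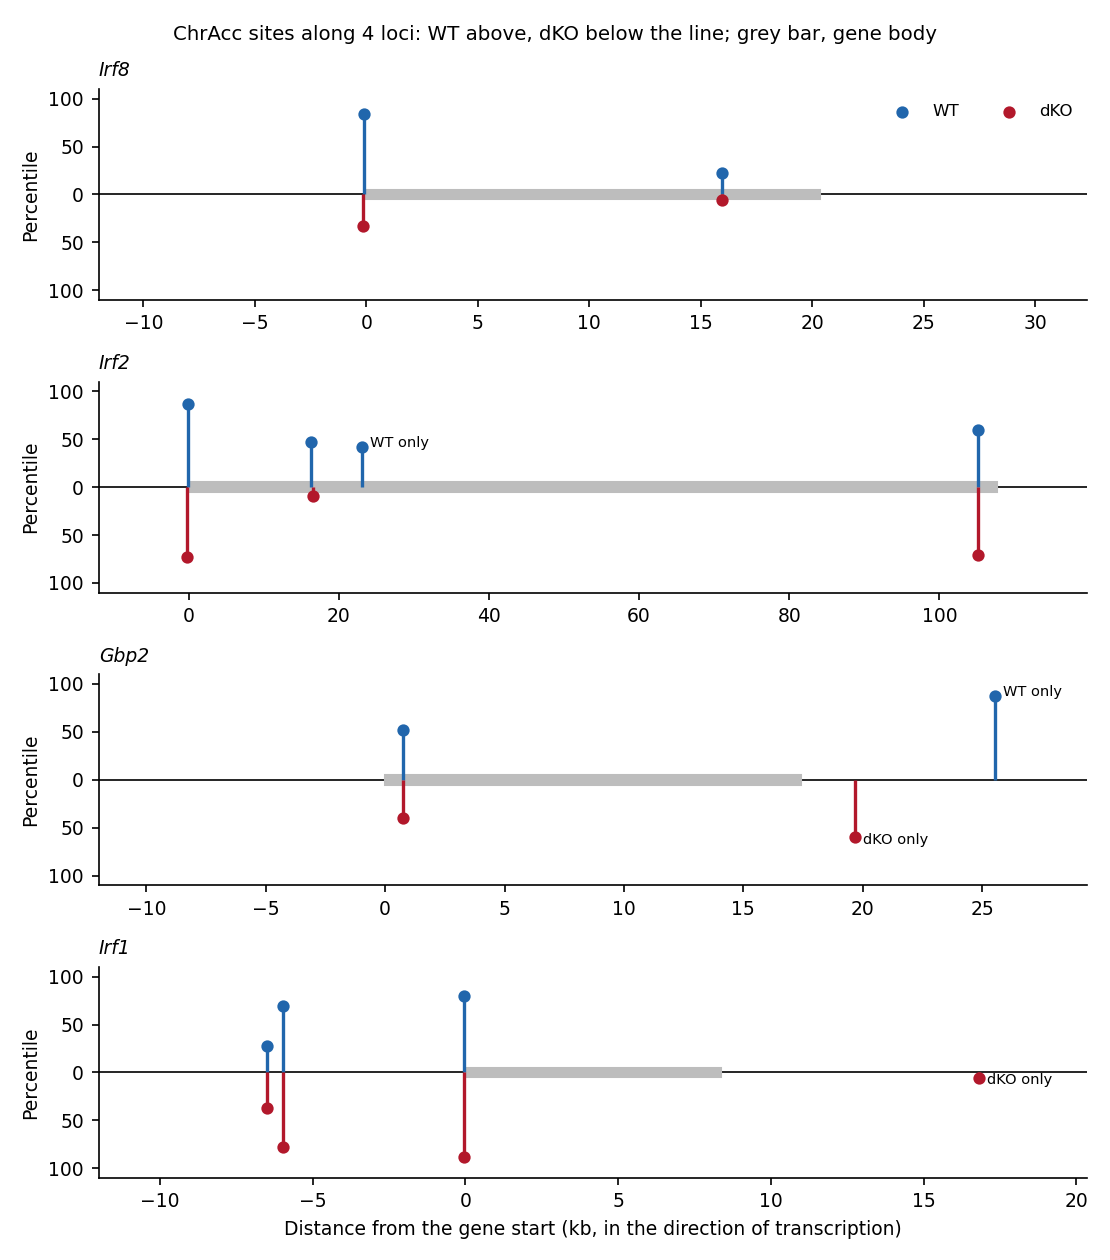
Sites along *Irf8*, *Irf2*, *Gbp2* and *Irf1*, by distance from the gene start in kb (horizontal axis) and percentile of fold enrichment (vertical axis, WT above and dKO below the line, with the gene body as a grey bar). The *Irf8* promoter and the sites of the first *Irf2* intron are lower or absent in dKO, while the 3 shared *Irf1* sites are of similar height in both.

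*Irf1*, an activator of interferon and antigen-presentation genes, ranked slightly higher in dKO at its 3 shared sites, although none of these had a higher depth-scaled pileup in dKO. Its promoter site, 50 bp upstream and with a GAS match, was at 79.9 in WT and 88.2 in dKO. Its sites about 6 kb upstream were at 69.4 and 77.4, and at 27.7 and 36.6. The pileup ratios of these 3 sites lay between 0.947 and 0.992. A weak dKO-only site (percentile 5.39, pileup 18) lay in the flank beyond the gene, in an intron of *Gm12216*. All 3 shared differences were below 20 points.

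*Irf7*, the master factor of the type I response, had a promoter site 5 bp upstream of its start at percentile 44.6 in WT and 31.2 in dKO (pileups of 67 and 33). A second WT site, in exon 4 and next to the start of a shorter transcript, was at percentile 40.2 with a pileup of 63 and was absent from dKO (chr7:148451053-148451207). *Irf3*, the constitutive sensor-activated factor, shares its promoter with *Bcl2l12* on the other strand. The main site there was level, at 87.1 in WT and 86.8 in dKO. A neighbouring site in *Bcl2l12* intron 1, 335 bp upstream of *Irf3*, was at 46.4 in WT and 78.6 in dKO, with pileups of 68 and 63 and a ratio of 1.25 (0.872 to 1.79), an interval that includes 1.

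*Irf9* and *Stat2*, the DNA-binding and activating parts of the type I complex, were among the most open promoters. *Irf9* stood at 97.7 in WT and 99.2 in dKO, and *Stat2* at 94.1 and 89.2. Each gene had this single site. *Irf5*, a factor of B and myeloid cells, had no peak in either list.

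*Rsad2*, which encodes the antiviral enzyme viperin, had 1 site, 25 bp upstream of its TSS and overlapping the ISRE core shown above. It was at percentile 72.9 in WT and 46.9 in dKO, with pileups of 77 and 41. The ratio of 0.718 had an interval from 0.479 to 1.06 that included 1, although the difference in percentile was past 20 points under each of the 6 alternatives, where dKO minus WT ran from −46.56 to −21.64. *Bst2*, which encodes the virus-tethering protein tetherin, had 3 sites, all higher in dKO. Its own promoter was at 61.1 in WT and 67.2 in dKO. The site downstream of the gene, at 8.55 kb, was at 32.8 and 50.6, and the site at the *Fam125a* promoter was at 92.7 and 99.6.

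The Ifit genes encode proteins that bind foreign RNA ends. *Ifit2* had a shared site 2.52 kb upstream at percentile 91.2 of the WT list and 97.1 of the dKO list. Its promoter site was level, at 36.5 and 36.2, and another site, 374 bp downstream of its start in intron 1, was present in WT alone (percentile 18.6, pileup 42). *Ifit1* had 1 promoter site, with both ISRE cores, at 37.5 in WT and 31.1 in dKO. *Ifit3* had no peak in either list.

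The Isg genes include *Isg15*, a ubiquitin-like modifier, and *Isg20*, an RNA exonuclease. The *Isg15* promoter site was at 30.1 in WT and 24.5 in dKO, and a second site upstream, at the *AW011738* promoter, at 80.6 and 68.0. At *Isg20*, the site at the start of a transcript, which carries an ISRE core, was at 22.8 in WT and 6.43 in dKO (pileups of 52 and 27), and the site 814 bp upstream of a start was at 50.5 and 39.2. *Isg20l2*, a nuclear exonuclease of ribosomal RNA processing, had a promoter site shared with its neighbour *Rrnad1* at 99.3 in WT and 98.7 in dKO. Of the 6 Isg sites, 5 were lower in dKO, by less than 20 points each, and the exception was the weak second *Isg20l2* site, at 9.09 in WT and 13.4 in dKO.

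*Mx1* and *Mx2* encode dynamin-like antiviral GTPases. The *Mx1* promoter site was at 29.6 in WT and 32.4 in dKO. The *Mx2* site, 899 bp upstream and over the ISRE core shown above, was at percentile 14.1 in WT with a pileup of 35 and had no dKO peak. C57BL/6 mice carry a defective *Mx1* coding sequence.

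The Oas family includes sensors of double-stranded RNA that activate RNase L, though not every member need do so, and most of the Oas cluster had no site. *Oas1b* and *Oas1c* share a promoter site, with overlapping ISRE cores, at 83.2 in WT and 69.0 in dKO (pileups of 89 and 44, ratio 0.667, 0.454 to 0.967). That interval lay below 1 but held the 0.912 median of all shared sites. *Oas3* had a site in intron 1, 1769 bp downstream of its start, at 81.6 in WT and 80.2 in dKO. A weak dKO-only site (percentile 6.84, pileup 34) lay between *Oas3* and *Oas1e*, and a site beyond *Oas1b* was at 81.1 and 86.9. *Oas2*, *Oas1a*, *Oas1d*, *Oas1f*, *Oas1g* and *Oas1h* had no peak in either list.

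The Gbp genes encode guanylate-binding proteins, GTPases induced mainly by interferon γ that attack intracellular pathogens. They lie in clusters on chromosomes 3 and 5. On chromosome 3, *Gbp3* had the highest site, at percentile 91.8 in WT and 97.8 in dKO, and *Gbp2* a promoter site, also within 10 kb of *Gbp1*, at 51.8 and 39.5. *Gbp5* had no promoter site, and its sites 6.23 and 3.15 kb upstream were at 67.2 and 62.5, and at 38.4 and 36.8. *Gbp7* had a promoter site over an ISRE core at 37.4 in WT and 16.2 in dKO, with pileups of 58 and 37, a ratio of 0.860 (0.554 to 1.32) and a difference that stayed past 20 points in only 2 of 5 alternatives.

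Downstream of *Gbp2* each genotype had a site of its own. The WT-only site, 25.5 kb from the *Gbp2* TSS, stood at percentile 87.9 with a pileup of 76, the highest rank of any member site found in 1 list. The dKO-only site, 19.6 kb from the TSS, stood at percentile 60.1 with a pileup of 47. Neither overlapped any deposited peak of the other genotype, and neither held an ISRE core or ATCAAAG within 100 bp of the summit. The dKO-only site held AG, any 2 bases, GGCGC, a part of the motif of the insulator protein CTCF. This pattern was searched for after the letters of that site had been seen. It lay at 9.04% of all dKO sites, 6.45% of the dKO-only ones and 9.11% of the WT-only ones. On its minus strand the WT-only site read AG, any 2 bases, GGCAG beside the summit, which the pattern did not count. The search therefore does not tell the 2 sites apart by CTCF, and no binding was tested. The WT-only site is printed with the 11 bases around its summit in capitals and the dKO-only site with the CTCF match in capitals:
Gbp2 WT-only site (chr3:142309044-142309148, plus strand): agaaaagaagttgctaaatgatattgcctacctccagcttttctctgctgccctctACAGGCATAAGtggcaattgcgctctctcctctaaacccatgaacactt
Gbp2 dKO-only site (chr3:142303193-142303336, plus strand): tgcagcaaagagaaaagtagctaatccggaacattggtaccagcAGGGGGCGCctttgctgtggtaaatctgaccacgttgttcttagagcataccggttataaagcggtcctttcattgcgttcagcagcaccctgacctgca

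On chromosome 5, *Gbp4* (95.5 in WT and 92.1 in dKO) and *Gbp8* (91.9 and 85.6) had highly ranked promoter sites, and *Gbp9* one at 44.4 and 42.8. *Gbp10* had a broad promoter site at 40.5 in WT and 19.7 in dKO (pileups of 39 and 23, ratio 0.795, 0.453 to 1.36), and its summit moved so that the ISRE core lay within 100 bp in WT alone. The WT summit region had 4 near-identical copies, at up to 97.9% identity, and the dKO summit region none, and the part of this was not tested. The difference at *Gbp10* was also past 20 points in only 2 of 5 alternatives. Upstream of *Gbp8*, a weak WT-only site (percentile 11.2, pileup 26) and, upstream of *Gbp4*, a dKO-only site (percentile 24.5, pileup 31) both centred on an ISRE core. Their surroundings were near-identical copies, with 188 of 197 aligned bases in common (95.4%). The part of such copies in the result was not tested. *Gbp6* and *Gbp11* had no peak in either list.

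The Ifi genes are a mixed group named for interferon induction. *Ifi35* was at 48.7 in WT and 67.2 in dKO at its own promoter, with pileups of 46 and 43, and *Ifi27l2a* at 35.6 in WT and 59.2 in dKO, with pileups of 39 and 40 and a ratio of 1.38 (0.867 to 2.21), at a site that also lies in intron 2 of *Ifi27l2b*. The flank of *Ifi35* also held both of the weakest dKO-only sites, in introns of *Rnd2*, at percentiles 2.50 and 0.503, and the second of these had a WT peak below the criteria for a site. *Ifi27l1*, with its 3 ISRE cores, was level at 78.7 and 81.4. *Ifi47*, an immunity-related GTPase, had no promoter site and 4 sites in each list, of which 3 were intronic and 1 lay past the gene's end in an intron of *Olfr56*. The one with an ISRE core was at 35.8 in WT and 50.03 in dKO. *Ifi30*, a lysosomal thiol reductase of antigen processing, had a weak WT-only site in intron 1, 677 bp downstream of a TSS (percentile 5.46), and its 3 other WT sites belonged to the starts of its neighbours *Rab3a*, *Mpv17l2* and *Pik3r2*. The *Pik3r2* site ranked alike, at 97.8 in WT and 93.6 in dKO. Its pileups were 143 and 65, with a ratio of 0.613 (0.450 to 0.827), an interval below the 0.912 median of all shared sites.

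The DNA sensors of the Ifi200 cluster on chromosome 1 were nearly closed. *Ifi204* and *Ifi203* each had 1 weak dKO-only site, at percentiles 11.3 and 3.02, with pileups of 20 and 17. The 201 bp around each summit had a copy elsewhere, of 96.5% identity for *Ifi204* and 98.0% for *Ifi203*, and the part of this in the result was not tested. The flank of *Ifi205* held a site 9.26 kb upstream, which is 917 bp upstream of the olfactory receptor gene *Olfr433*, at 43.0 in WT and 3.97 in dKO (pileups of 41 and 19, ratio 0.625, 0.343 to 1.10). *Ifi202b* and *Ifi44* had no peak in either list.

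In all, 12 of the 50 genes had neither a ChrAcc site nor any deposited peak in either genotype. Many members are recent duplicates. The 201 bp around the gene start had a copy elsewhere in the genome, of at least 90% identity over at least 80% of its length, at 5 of these 12 genes and at 15 of all 50. Among the 30 genes with a promoter site in either list, 7 had such a copy, and among the 20 without one, 8 had. Uniquely mapped reads are fewer in such sequence, and the part of copies in the missing sites was not tested.

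Promoter sequence was set beside the presence of a site. The 250 bases before a TSS held an ISRE core at 24 of the 50 genes, beside 7.07% of all protein-coding genes. Of these 24, 13 had a promoter site in WT and 14 in dKO. Of the 26 without a core there, 16 had one in WT and 14 in dKO. Several of these promoters are copies of each other, so the genes are not independent.

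Shared sites were also divided by the presence of an ISRE core, with no test. The division was made in percentile points only and was not repeated on the pileup ratios, where drops at such sites could be small. The ratio was 0.860 at *Gbp7* and 0.718 at *Rsad2*, beside a median of 0.912 over all shared sites. Of 13 with a core 9 were lower in dKO, with a median difference of −13.9 points, and of 41 without a core 22 were lower, with a median of −0.31 points. At promoters alone, 9 of 11 sites with a core were lower (median −14.3 points), against 14 of 27 without (median −0.22 points). Over all shared WT sites with an ISRE core, 52.7% of 717 were lower, with a median of −0.78 points, against 58.7% of those without a core. Over all 219 such promoter sites 58.0% were lower (median −2.05 points), against 63.3% of promoter sites without a core (median −3.40 points), so over all sites the order was the opposite of that among the members. Member sites with a core also ranked lower in WT, at a median percentile of 37.5 against 68.3 for those without, and the part of rank in the difference was not tested. The 3 promoter sites with a core that were past 20 points were *Rsad2*, *Gbp7* and *Gbp10*, and the 2 distal sites with a core, at *Ifi47* and in *Irf2* intron 8, were higher in dKO.

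**Figure D5:**
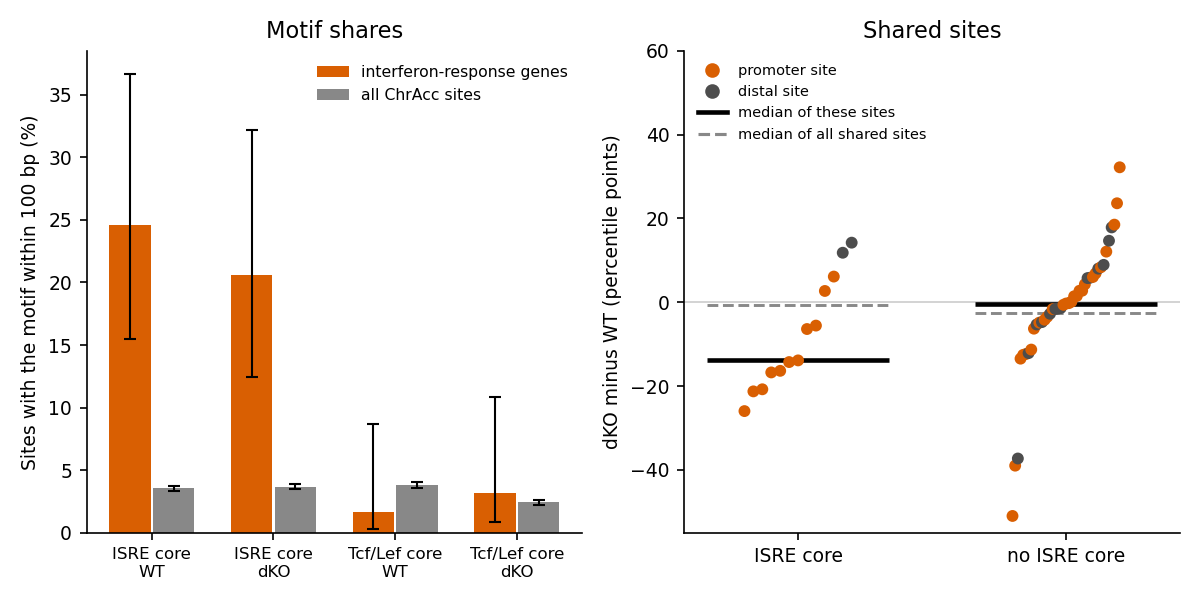
Left, share of sites with the ISRE core or the Tcf/Lef core within 100 bp of the summit (percent, with 95% Wilson intervals) for the interferon-response genes and for all ChrAcc sites. Right, dKO minus WT in percentile points at each shared member site with and without an ISRE core, promoter sites in orange and distal sites in grey, with the median of these sites (solid) and of all shared sites of that kind (dashed). The ISRE share of the members lies far above that of all sites, and the 13 sites with a core have a median of −13.9 points. The right panel was not repeated on pileup ratios.

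The rest of the pathway was read from a list of 61 other genes of interferon sensing, signalling and response, of which 58 were in the annotation. A ChrAcc site was present at 53 of them in WT and 51 in dKO, beside 60.9% and 57.5% of all protein-coding genes. Of their 152 WT sites, 40 (26.3%) were absent from dKO, and of 130 dKO sites 19 (14.6%) were absent from WT, beside backgrounds of 27.6% and 14.4%. At 112 shared sites, 12 were at least 20 points higher in WT (10.7%, beside 13.6% of all shared sites) and 15 in dKO (13.4%, beside 7.03%), and the median difference was 1.78 points.

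The receptors and kinases differed among themselves in promoter accessibility. The promoter of *Ifnar1*, a chain of the type I receptor, stood at 91.6 in WT and 90.9 in dKO, and that of *Ifngr1*, a chain of the interferon γ receptor, at 86.1 and 79.95. *Jak1*, a kinase of both receptors, was at 77.3 and 83.2. The partner chain *Ifnar2* and the kinase *Tyk2* had no promoter site in either list, *Ifngr2* had none in WT and one at 1.16 in dKO, and *Jak2* was at 2.59 and 23.2. The sensing genes did not move as a group. *Dhx58* (94.7 and 70.6) and *Mavs* (94.3 and 77.4) were lower in dKO, and *Ddx58* (45.4 and 37.8) and *Ifih1* (23.0 and 21.4) were lower by less. *Zbp1* (80.1 and 89.2) and *Myd88* (91.1 and 95.6) were higher in dKO. The antigen-processing promoter shared by *Tap1* and *Psmb9* was also higher there (52.3 and 71.1). *Irf4*, a factor of activated T cells and plasma cells, had 5 WT sites, all absent from dKO, and no dKO site. Its highest WT promoter site was weak, at percentile 9.98. *Igtp*, an immunity-related GTPase like *Ifi47*, had a promoter site at 67.6 in WT and none in dKO. *Ifnb1*, *Tlr3* and *Tlr7* had no site in either list.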

How the data were processed

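DNase-seq libraries of 3 WT and 2 dKO replicates were processed by the authors, who per the labels and methods used FastQC, Bowtie2 2.2.5 on mm9 and uniquely mapped reads, pooled the replicates of each genotype, and called peaks with MACS2 2.1.1 from paired ends, with no control. The deposited pileup is a signal in whole fragments, taken here as not scaled to depth. In the deposited lists, fold enrichment is a ratio, the pileup over the local background. The authors' p-values and q-values are deposited on the −log10 scale. Per the file headers, 167847468 WT and 124485926 dKO fragments were given to MACS2, 2 times the 83923734 and 62242963 kept. The headers name 2 alignments for each genotype, one by its name a sorted copy of the other, and at most 1 fragment was kept per position.

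From the lists, ChrAcc sites were taken by the study's criteria: 4 or more for fold enrichment, with p below 1e-05 and q below 0.05. Percentiles, overlaps, Wilson intervals and conditional exact intervals of pileup ratios were computed with Python 3.11.15, numpy 2.4.6, pandas 2.3.3 and scipy 1.17.1. Depth sets the lowest peak that can be called, and dKO was sequenced less deeply (by 1.35 times), which can remove weak dKO peaks. Sequences came from mm9 with pysam 0.24.0 and samtools 1.23.1, copies from blastn 2.17.0, genes from the GENCODE annotation of mm9, and plots from matplotlib 3.10.9. Overlap, percentile, member and motif steps were tested on simulated data.

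Members, lists and tests were chosen with earlier results of these data known. Named were the single factors, each family's genes with a site (at most 10 by fold enrichment) and their promoter, 1-list and 20-point sites, and *Irf2* intron 8 and the other shared sites were added as context after their values were seen. No p-value was computed, since each genotype is a single pooled list. Alternatives were other site criteria, overlaps, rankings, flanks, promoter and motif windows. Values of single genes in the marker and pathway lists are given for some genes, and the others are not reported here.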

Additional observations from a re-analysis of the deposited data

How the results depend on the processing

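No paired analysis was possible because the replicates of each genotype were pooled before peaks were called, and no replicate could be left out for the same reason. Of 169 comparisons of a main result with an alternative, 146 stayed within the interval or within 1.5 times of the value reported, and 23 moved. The intervals are wide, so a value could change much and still count as unmoved. The WT-only share of 20% with q under 1e-10 did so, as did the median difference where its sign turned in percentile points. With a minimum fold enrichment of 8, members with a promoter site numbered 18 in WT and 16 in dKO, member sites 36 and 37, and shared sites 20 points higher in dKO 4. That last count, 2 as reported, was 1 with the lists as deposited, 5 with the 20000 peaks of highest −log10 p, 0 ranked by pileup, 6 with a flank of 20 kb and 1 for sites nearest to a member TSS. Sites 20 points higher in WT, 6 as reported, were 2 among the 20000 peaks. At 10 points the counts were 15 in WT and 8 in dKO, and at 30 points 3 and 1. The dKO-only share was 5.77% with q under 1e-10 and 6.52% with a flank of 5 kb, and a flank of 20 kb gave 93 WT sites. The ISRE share was 14.8% in WT with a window of 50 bp, and 11.5% in WT and 11.1% in dKO for the longer form, and the WT share with ATCAAAG was 0% with a window of 50 bp. As a centred log2 ratio of pileups, on which 0 is the median of all shared sites, the median difference of shared member sites was 0.047, of opposite sign to the −1.44 points, and in percentile points it was also positive among the 20000 peaks (2.40) and at a fold enrichment of 8 (0.343). The cause was not tested. The 8 sites that differed by 20 points kept their direction under the 6 or 7 alternatives in site criteria, ranking and scale that gave them a value. *Ifi205*, *Gbp7* and *Gbp10* gave none at a fold enrichment of 8, where they were no longer sites, and single sites were not followed across flanks and overlaps. Leaving out sites with near-identical copies was added after the data were seen. It was tried only for the number of member sites, the 1-list share and the median percentile, and none of these moved. The ISRE shares, the 20-point counts and the differences at shared sites were not recomputed without copies. Depth limits the weakest sites: the lowest dKO member site, in the flank of *Ifi35*, rested on 16 fragments.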
